A study of Mus musculus with 2 samples.

Results

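Somatostatin interneurons of the aged mouse hippocampus were selected on their own measured transcripts from 2 single-cell RNA-seq libraries, and 280 of 31097 deposited cells met the conditions, 145 of control mice and 135 of tomatidine-fed mice. A cell was kept when it had at least 2000 unique molecular identifiers (UMIs, tags that mark single captured molecules), Gad1 and Gad2 together at 5 UMIs or more, at 3 or more per 10000 UMIs of the cell and above Slc17a7 and Slc17a6 together, at least 1 UMI of Lhx6, and Sst at 20 UMIs or more and 10 or more per 10000. Both libraries came from hippocampus of C57BL/6 mice, with 4 mice pooled into each. The mice were 21 months old at the start and were fed for 3 months, the treated group with tomatidine, a steroidal alkaloid of tomato, at 0.05% of the diet and the control group without it. The mice were wild-type, and the study used both sexes without giving the sex of the pooled animals in the labels. A UMI of 4 Y-linked genes was found in 94.5% of control and 91.9% of tomatidine members, and the 8 and 11 cells without one were shallow (median 8142 and 4035 UMIs). Of members with at least 20000 UMIs, 1 of 108 control cells and none of 87 tomatidine cells lacked one. Since each group is 1 pooled library, no difference between the groups has a replicate check, no test between them was run, and each interval below is a 95% interval for counting error alone.

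Somatostatin interneurons release GABA together with the peptide somatostatin and mostly contact the dendrites of excitatory neurons, which places them where incoming signals arrive. In the hippocampus they include the oriens lacunosum-moleculare cells, whose axons reach the outermost dendrites of pyramidal neurons, bistratified cells, hilar cells of the dentate gyrus and a rare class with long-range axons that makes nitric oxide. Like the fast-spiking parvalbumin interneurons they are born in the medial ganglionic eminence under the transcription factor Lhx6, whereas interneurons with Adarb2 come mainly from the caudal ganglionic eminence.

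The transcripts that chose the cells describe them but are no result. Sst lay between 11.2 and 732 UMIs per 10000 in the 145 control cells, with a median of 91.9, and between 11.2 and 634 with a median of 86.3 in the 135 tomatidine cells. The ranges overlapped almost in full. The CPM level, the UMIs of a gene summed over the cells and scaled to a fixed total of UMIs, was 13939 in control and 13463 in tomatidine, so that Sst alone made up 1.39% and 1.35% of all UMIs of these cells. The probes differ in number between genes, so levels are compared for 1 gene at a time. The cells held 81.5% and 78.5% of all Sst UMIs of their libraries. Gad1 and Gad2, the enzymes that make GABA, had a median of 94 and 74 UMIs per cell together, and Lhx6 a median of 7 and 8 UMIs, with 21 control and 23 tomatidine cells at a single Lhx6 UMI.

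The edges of the selection were as follows. Of the cells with the GABA and Lhx6 conditions, 332 in control and 325 in tomatidine, the members with the least Sst had 22 and 21 UMIs. Just outside stood 2 control cells and 1 tomatidine cell with enough Sst UMIs but at most 9.01 and 8.83 per 10000, and 4 and 9 cells with a sufficient share but at most 13 and 17 UMIs. Another 67 and 63 cells met the GABA and Sst conditions without a Lhx6 UMI. Their median depth of 21089 and 13178 UMIs was below that of the members given below. A further 36 and 93 cells had Sst above the threshold but failed the GABA condition, and in 32 and 87 of them Slc17a7 and Slc17a6, the vesicular glutamate transporters, were at or above Gad1 and Gad2.

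Some markers that the selection did not use are known from interneurons of the medial ganglionic eminence. Nxph1, a neurexin ligand of interneurons from the medial ganglionic eminence, had at least 5 UMIs and 3 per 10000, the condition for a positive cell throughout, in 127 of 145 control cells (87.6%, 81.1 to 92.5) and 109 of 135 tomatidine cells (80.7%, 73.1 to 87.0). Of the parvalbumin cells defined below, 77.4% and 70.9% were positive for Nxph1, so it does not set these classes apart. Satb1, a chromatin organiser needed for the maturation of these cells, was at 528 and 494 CPM. Against these values, Satb1 stood at 76.8 and 27.2 CPM in Adarb2 cells of the same libraries, which were chosen without a Lhx6 UMI. The list of transcription factors of the medial ganglionic eminence was mixed. Without Lhx6, 4 of 15 tested were at least 2-fold higher than in Adarb2 cells in both libraries and 2 at least 2-fold lower. Slc17a7 and Slc17a6, which the selection held below Gad1 and Gad2, had at least 1 UMI in 117 and 107 members and are no support for the label.

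The selection on UMI numbers favours deep cells. The median depth was 39693 UMIs in control (2650 to 310764) and 31914 in tomatidine (2429 to 204270), against 21880 and 18296 UMIs over the cells with the GABA conditions and 56340 and 50990 in the parvalbumin cells defined below. More than 6000 genes were found in 114 control and 90 tomatidine members, which an upper limit of 6000 genes per cell would remove. The libraries held 279525565 and 259059908 UMIs, of which the members contributed 7372251 and 6046444. Barcodes found in both libraries numbered 292, among them 2 control members and 4 tomatidine members, and none was a member in both. Scrublet called 0 control and 3 tomatidine cells as doublets, too few for a working call, so doublets were not removed.

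Somatostatin interneurons formed 1.04% of control cells with at least 2000 UMIs (145 of 13974, 0.876 to 1.22) and 1.01% of tomatidine cells (135 of 13406, 0.845 to 1.19). The difference, tomatidine minus control, was −0.0306 percentage points (−0.270 to 0.210), which was not detectable at this number of cells. Among cells with the GABA conditions they formed 13.5% in control (145 of 1074, 11.5 to 15.7) and 9.99% in tomatidine (135 of 1352, 8.44 to 11.7). That difference was −3.52 points (−6.15 to −0.947), and the number of cells with the GABA conditions was the larger one in tomatidine.

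RNA of other cell types was present and differed between the libraries. Over all 10187 genes with at least 100 UMIs in both libraries together, 2.28% were at least 1.5-fold higher in tomatidine and 0.883% at least 1.5-fold lower, and the lists are to be read against these shares. Endothelial and mural markers summed to 18.5 CPM in control and 229.6 CPM in tomatidine, where 5 of 135 cells had over 5 per 10000 and 1 reached 138 per 10000. Cldn5, a tight junction protein and a defining marker of endothelium, had 1 UMI in the control cells and 246 in the tomatidine cells. Vtn, the most abundant of these markers, had 93 and 457 UMIs. The 4 of 8 markers that reached 100 UMIs, Cldn5, Flt1, Vtn and Rgs5, did so largely through the tomatidine cells, so their calls are no independent count. Astrocyte markers, led by Aldoc, summed to 793 and 1061 CPM (3 of 7 tested at least 1.5-fold higher), and microglia markers to 222 and 305 CPM (4 of 7). All 8 oligodendrocyte markers were lower in tomatidine without passing 1.5-fold, at 2425 and 2042 CPM in sum. Ttr, the transport protein of choroid plexus and the only tested member of that list, fell from 1428 to 35 UMIs, a log2 ratio of −5.06, and in oligodendrocytes its ratio was −4.73. Of the other choroid plexus markers, Otx2 and Tmem212 were at 0 in control and Kcnj13 and Aqp1 in tomatidine. Excitatory neuron markers, led by Slc17a7, summed to 233 and 243 CPM. The part of these transcripts in the ratios below was not tested, but the counts without the 5 cells and without all cells rich in such markers are given with them.

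Sst is transcribed through a cyclic AMP response element (CRE), the site from which the factor CREB takes its name. Among 32851 windows of 250 bases before the start of a RefSeq transcript (GRCm38.p6), 508 (1.55%) held the full palindrome TGACGTCA, which reads the same on both strands. It stood in 2 of 16 windows of the matched neuropeptide genes (Sst and Cartpt, 14 of 18 genes matched), in 3 of 21 windows of peptide processing genes (Chgb, Pcsk1 and Scg2, 17 of 20 matched) and in 2 of 28 windows of immediate early genes (Btg2 and Dusp1, 17 of 22 matched). The element of Sst is shown beside those of the neuropeptide and peptide processing genes that hold it, since both lists are described below. Each stretch of 28 bases is written along the strand of the gene, with the element in capitals, and a match is a description of the sequence and not of binding.
Sst: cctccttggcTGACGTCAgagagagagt
Scg2: gctgagccggTGACGTCAgcgtggaatg
Chgb: ggctgctccgTGACGTCAgggctgagcg
Pcsk1: caggtagatcTGACGTCAagagatggct
Cartpt: cggcgggcatTGACGTCAaacggcagcg
Counted from the start of the RefSeq transcript, the element began 48 bases upstream for Sst (minus strand, chr16:23890875-23890902), 68 for Scg2 (minus, chr1:79440077-79440104), 72 for Chgb (plus, chr2:132781560-132781587), 78 for Pcsk1 (plus, chr13:75089769-75089796) and 112 for Cartpt (minus, chr13:99900778-99900805). The GENCODE gene model of Sst, from 23889573 to 23890958 on the minus strand of chromosome 16, begins farther upstream than the RefSeq transcript, so the stretch lies inside it, and the same holds for Scg2 and Cartpt.

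Peptides other than somatostatin divided the cells. Neuropeptide Y (Npy, chromosome 6, 49822710 to 49829507, plus strand), an inhibitory peptide that lowers glutamate release, was positive in 84 of 145 control cells (57.9%, 49.5 to 66.1) and 61 of 135 tomatidine cells (45.2%, 36.6 to 54.0). In control the quartiles over cells were 0, 4.68 and 24.3 UMIs per 10000 and the highest cell had 441, while in tomatidine they were 0, 1.83 and 13.8 and the highest cell had 361. When each cell was thinned to 2000 UMIs, 55.7% and 45.2% of members had a Npy UMI, against 2.49% and 3.15% of oligodendrocytes, whose own median depth was 5061 and 4604 UMIs and whose values gauge free RNA. Of the parvalbumin cells defined below, 9.52% and 8.86% were positive, and of the Adarb2 cells 36.0% and 25.7%.

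Cortistatin (Cort, chromosome 4, 149125034 to 149126763, minus strand), a peptide related to somatostatin that acts on its receptors, was positive in 30 control cells (20.7%) and 16 tomatidine cells (11.9%). Crhbp, the protein that binds and inactivates corticotropin-releasing hormone, was positive in 87 (60%, 51.5 to 68.0) and 57 (42.2%, 33.8 to 51.0). No Adarb2 cell was positive for Crhbp, while 45.2% and 54.4% of parvalbumin cells were. Tac1, the precursor of substance P, was positive in 19 and 15 cells, Pdyn, the precursor of dynorphin, in 16 and 18, Pnoc, the precursor of nociceptin, in 14 and 15, and Penk, the precursor of enkephalin, in 9 and 9. Crh itself was positive in 5 and 3 cells and Cartpt, the precursor of CART peptides, in 6 and 8. Nts, Gal, Grp and Adcyap1 had no positive cell in either library, which allows a share of up to 2.51% in control and 2.70% in tomatidine as exact binomial bounds.

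**Figure D1:**
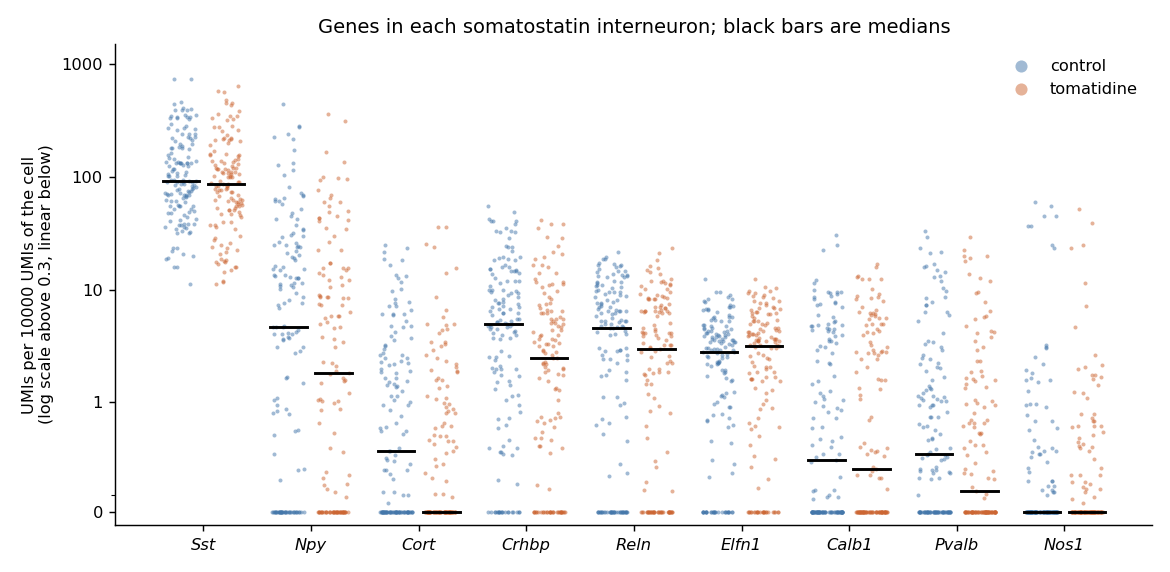
UMIs per 10000 UMIs of the cell for 9 genes in each control (blue) and tomatidine (orange) somatostatin interneuron, with 1 point per cell, black bars at medians and a vertical axis that is logarithmic above 0.3 and linear below. Sst is above 11 in each cell by selection, Npy spreads from 0 to 441, and the medians of Nos1 are at 0 in both libraries.

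Genes that mark the dendrite-targeting cells were common. Reln, the extracellular protein reelin, was positive in 77 control cells (53.1%, 44.7 to 61.4) and 60 tomatidine cells (44.4%, 35.9 to 53.2). Parvalbumin cells were positive for Reln in 0% and 1.27%, but Adarb2 cells in 24.0% and 28.7%. The log2 CPM ratio of Reln over Adarb2 cells was 1.18 in control and 0.21 in tomatidine, not past 2-fold in both libraries. Elfn1, a postsynaptic protein that sets facilitation at the excitatory inputs of these cells, was positive in 64 (44.1%) and 61 (45.2%). Parvalbumin cells were positive for Elfn1 in 1.19% and 0%, and Adarb2 cells in 6.4% and 6.62%. Calb1, the calcium buffer calbindin, was positive in 41 and 33 cells and Calb2, calretinin, in 14 and 13. Pvalb, which the selection did not exclude, was positive in 28 (19.3%) and 22 (16.3%). The nicotinic subunit Chrna2, a marker of oriens lacunosum-moleculare cells, was positive in 2 and 1 cells, and Hpse, a heparanase, in 1 and 0. Myh8, a cortical subtype marker, had 1 UMI in control and 0 in tomatidine.

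**Figure D2:**
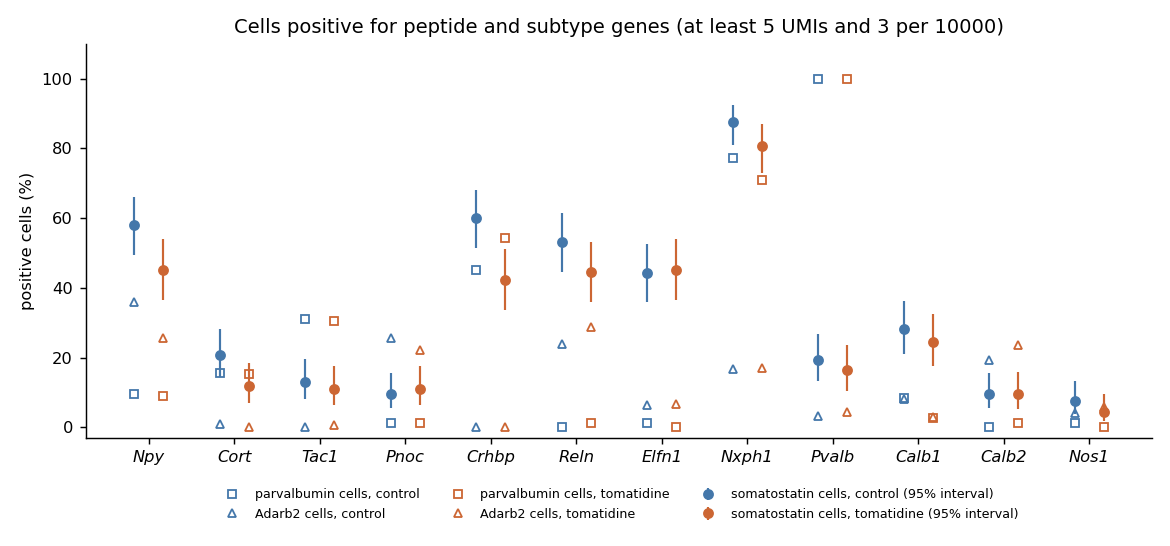
Percentage of cells positive for each of 12 genes, with filled circles and 95% binomial intervals for somatostatin cells and open squares and triangles for parvalbumin and Adarb2 cells, control in blue and tomatidine in orange. Elfn1 lies at 44.1% and 45.2% in somatostatin cells and at most at 6.62% in both other classes, while the circles of Npy and Crhbp stand lower in tomatidine.

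Some genes ran together within cells, and they did so in both libraries. Reln was positive in 52 of 64 Elfn1-positive control cells (81.2%), against 30.9% of the others, and in 43 of 61 (70.5%) against 23.0% in tomatidine, and Elfn1 was positive in 29 of 41 and 27 of 33 cells with Calb1. Another set joined Npy, Crhbp and Cort. Crhbp was positive in 70 of 84 Npy-positive control cells (83.3%), against 27.9% of the others, and in 39 of 61 (63.9%) against 24.3% in tomatidine, and 25 of 30 and 15 of 16 Cort-positive cells had Npy. Tac1 kept apart from the first set, with 2 of 19 and 0 of 15 Tac1-positive cells positive for Elfn1, and 7 and 8 of them had Pvalb. These shares are descriptions without a test. A deep cell reaches 5 UMIs more easily, and the part of depth in them was not tested.

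A small group was high in several of these genes. Cells positive for both Nos1, the neuronal nitric oxide synthase, and Chodl, a membrane lectin, numbered 6 in control and 3 in tomatidine. Their Sst lay between 221 and 732 UMIs per 10000 in control (median 397) and between 214 and 558 in tomatidine (median 450), against medians of 90.6 and 84.2 in the other members. The highest of the other members had 728 in control and 634 in tomatidine, so high Sst alone does not set the group apart. Npy ranged from 134 to 441 and from 135 to 361 per 10000, against medians of 4.37 and 1.73 in the others, whose highest cells had 238 and 165. The limit of the group cuts through similar cells: 1 control cell with Npy at 238, Nos1 at 36.4 and Chodl at 2.59 per 10000 fell short by Chodl alone, and the other members held 40.9% and 29.4% of the Nos1 UMIs. Although they were 9 of 280 cells, they held 33.3% of the Npy UMIs of all control members and 22.7% of those in tomatidine. Tacr1, the receptor of substance P, had a median of 3.57 and 4.60 per 10000 in them and 0 in the others, although the others held 30.2% and 52.0% of the Tacr1 UMIs and reached 8.31 in tomatidine, above the 6.87 of the group. Reln reached at most 0.451 per 10000 in these 9 cells and Elfn1 had a median of 0.569 and 0.657, against medians of 2.89 and 3.21 in the others. Sst, Npy, Nos1 and Chodl together are known from long-range somatostatin neurons.

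Parvalbumin interneurons, which share the origin of these cells, differed from them in peptides, receptors and channels. They were 84 control and 79 tomatidine cells with the same GABA and Lhx6 conditions, Pvalb at 10 UMIs or more and 5 or more per 10000, and Sst below the threshold. Of the 10187 genes, 598 (5.87%) were at least 2-fold higher in somatostatin cells in both libraries and 157 (1.54%) at least 2-fold lower. These genes had to reach 100 UMIs in the somatostatin cells, which keeps out genes present in the other class alone, and with 100 UMIs in either class 598 were higher and 209 lower of 10280. Ratios to a comparison sum of 0 were set against a floor of 3 UMIs and are lower bounds.

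Among the genes higher than in parvalbumin cells were a somatostatin receptor and several secreted or surface proteins. Sstr1, an inhibitory somatostatin receptor, was at 80.0 and 87.8 CPM in somatostatin cells and 2.53 and 2.52 CPM in parvalbumin cells, log2 ratios of 4.99 in control and 5.13 in tomatidine. Of the other receptors, Sstr4 (271 and 184 UMIs) and Sstr3 (87 and 75) were not past 2-fold against parvalbumin cells in both libraries, and Sstr2 (24 and 27) and Sstr5 (3 and 3) had too few UMIs for a call. Wnt7a, a secreted Wnt ligand, was higher by 5.06 and 4.94, AW551984 by 6.25 and 6.31, and Reln by 6.02 and 4.25. Layn (layilin, a hyaluronan receptor), Lama4 (a laminin chain), Chrnb3 and Chrna2 (nicotinic receptor subunits) had no UMI in parvalbumin cells of either library. Their lower bounds were 6.98 and 6.44 for Layn and between 4.38 and 5.10 for the others. Npas1, a transcription factor otherwise known from caudal interneurons, had 532 and 571 UMIs in somatostatin cells against 1 and 5 UMIs in parvalbumin cells. It was lower than in Adarb2 cells by 2.10 and 1.56.

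Ion channels differed in both directions. Of 25 channels of firing and pacing, 4 were at least 2-fold higher and 5 at least 2-fold lower than in parvalbumin cells in both libraries. Higher were Cacna1g, a T-type calcium channel that supports rebound bursts (2.20 and 2.33), Kcnd3, a channel of A-type potassium current (1.96 and 1.85), Scn2a, a sodium channel (1.57 and 1.65), and Kcnmb4, a subunit of large-conductance potassium channels (1.34 and 1.42). Among the lower were Kcnc1, a fast potassium channel of rapid firing (−1.56 and −1.65), and Kcna1 (−1.41 and −1.91) with its subunit Kcnab1 (−1.75 and −1.53).

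The 14 GABA receptor genes split likewise, with 2 higher and 4 lower. Gabrg1, a rare gamma subunit, was higher by 3.50 and 3.28 and Gabra2 by 1.35 and 1.01. Gabrd, the delta subunit of tonic inhibition, was lower at −2.28 and −2.27, and Gabrg3 and Gabra4 were also among the lower. Of 23 glutamate and acetylcholine receptor genes 7 were higher and 0 lower, among them the kainate receptor subunit Grik1 (2.33 and 2.20), the nicotinic subunit Chrna7 (2.92 and 2.60) and the muscarinic receptor Chrm3 (2.20 and 2.05).

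**Figure D3:**
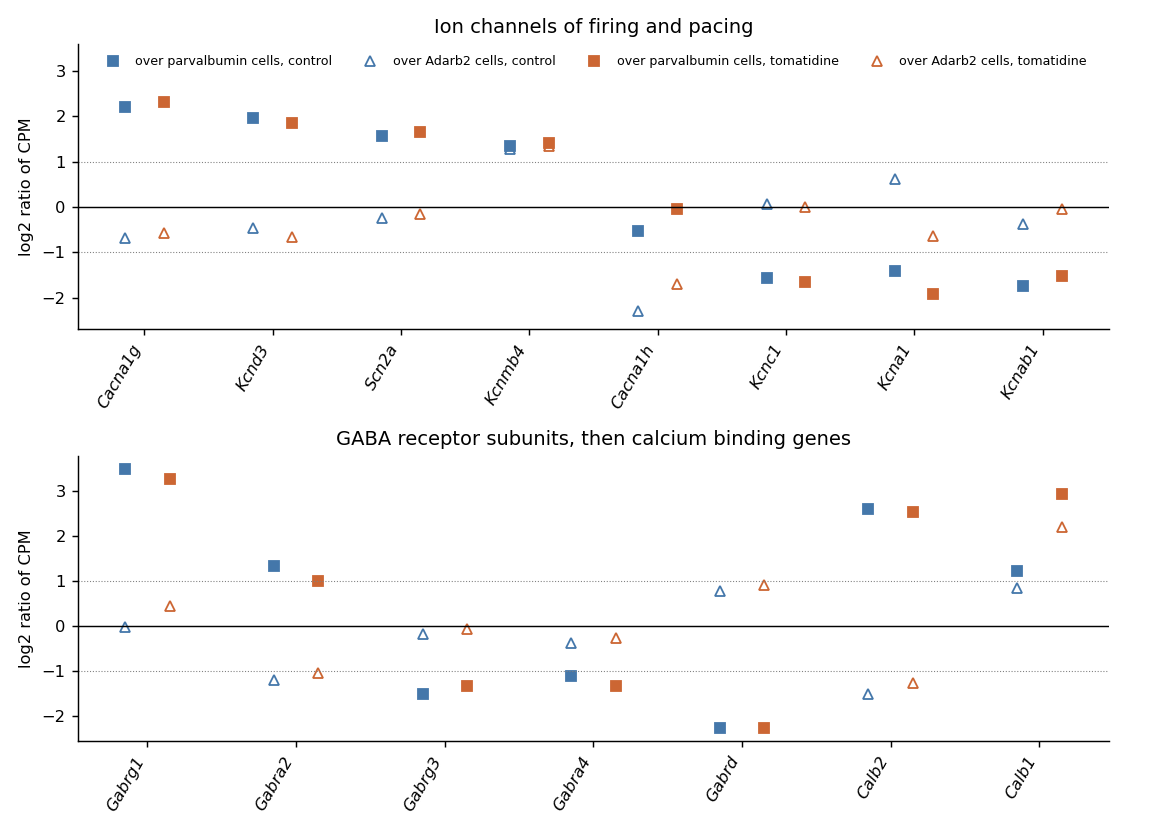
Log2 ratio of CPM in somatostatin cells over parvalbumin cells (squares) and over Adarb2 cells (triangles) of the same library, for the channel genes named in the text above and the GABA receptor and calcium binding genes named below, control in blue and tomatidine in orange with dotted lines at 2-fold. Cacna1g, Kcnd3 and Scn2a stand above the line against parvalbumin cells and Kcnc1 and Kcna1 below it in both libraries.

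Few release machinery and calcium binding genes passed 2-fold in both libraries. Of 23 synaptic organisers and release genes 3 were higher and 2 lower, and of 14 calcium binding genes 2 were higher and 1, Pvalb, lower. Cplx2, a complexin, was higher by 2.58 and 2.40, and Syt2 and Vamp1, the fast release proteins of parvalbumin terminals, lower at −2.67 and −3.40 and at −1.45 and −1.87. Calb2 was higher by 2.60 and 2.54 and Calb1 by 1.24 and 2.95, while Pvalb was used to choose the parvalbumin cells. Erbb4, the neuregulin receptor, was lower at −2.11 and −1.88 and Mef2c, an activity-dependent transcription factor, at −1.22 and −1.22. Other genes with the lowest ratios were Prss23, Pde5a, Cemip and Gfra1, which encode a protease, a phosphodiesterase, a hyaluronan-degrading protein and a receptor of GDNF, at −2.47 or below in both libraries. Of 7 tested perineuronal net genes 3 were lower, including the aggrecan gene Acan (−1.77 and −3.58). All 8 oligodendrocyte markers were also at least 2-fold higher than in parvalbumin cells, with a sum of 2425 against 900 CPM in control and 2042 against 615 CPM in tomatidine, and the part of glial RNA in the count of 598 was not tested.

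Adarb2 cells were 125 control and 136 tomatidine cells with Adarb2 at 5 UMIs or more and 3 or more per 10000 and no Lhx6 UMI. Against them, 201 genes (1.97%) were at least 2-fold higher in both libraries and 197 (1.93%) at least 2-fold lower. With 100 UMIs in either class 201 were higher and 319 lower of 10359. Without Lhx6, which chose the cells, 4 of 15 tested transcription factors of the medial ganglionic eminence list were at least 2-fold higher and 2 at least 2-fold lower (Npas1 among them). Sox6 was higher by 4.31 and 4.80 and Satb1 by 2.78 and 4.18. Crhbp was higher by 7.32 and 6.17, Lypd6, a modulator of nicotinic receptors, by 5.35 and 5.02, and Alkal2, a ligand of the receptor tyrosine kinase Alk, by 5.95 and 4.98. Dmrt2, a transcription factor, had no UMI in Adarb2 cells and was higher by at least 5.49 and 5.37. Lower genes were those of caudal interneurons: the chemokine Cxcl14 (−6.50 and −5.10), Sema3c, a guidance protein (−5.32 and −4.57), the serotonin channel Htr3a (−4.71 and −6.08), the peptide Cck (−5.16 and −4.62) and the cannabinoid receptor Cnr1 (−4.67 and −3.96). All 10 markers of caudal interneurons were at least 2-fold lower in both libraries. Some genes that were higher than in parvalbumin cells were not past 2-fold here, such as Gabrg1 (−0.03 and 0.44), Chrna7 (−0.09 and −0.37) and Adcy2, an adenylyl cyclase (0.11 and 0.28).

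With tomatidine, most transcripts of somatostatin cells were close to control. The median log2 CPM ratio of tomatidine over control was 0.04 over all tested genes, with quartiles of −0.07 and 0.15, and 232 genes (2.28%) were at least 1.5-fold higher and 90 (0.883%) at least 1.5-fold lower. Without the 5 cells with endothelial RNA 148 were higher, and with only the 82 and 83 cells poor in other-cell markers 125 were higher. As a mean over cells both counts were larger, as given in the section on processing. Among genes with at least 200 UMIs, the 8 with the highest ratios were Cldn5, Flt1, Klf2, Rgs5, Vtn, Pltp, Itm2a and Epas1, genes known from endothelium or pericytes. Without the 5 cells Pltp turned to −0.38 and Vtn to −2.60, and Itm2a at 0.44 and Epas1 at 0.50 were no longer past 1.5-fold. The 8 with the lowest were Ttr, Cd74, the invariant chain of antigen presentation, Slc17a8, a vesicular glutamate transporter, Th, the enzyme of catecholamine synthesis, Ptgds, a prostaglandin synthase, the growth factor Igf2 and its binding protein Igfbp2, and Egln3, an oxygen-sensing hydroxylase. Ptgds went from 8687 to 2217 UMIs, Th from 278 to 66 and Slc17a8 from 247 to 48. Several of these values rested on few cells: 1 control cell held 94.5% of the Cd74 UMIs and 1 held 75.5% of those of Th. Without the top cell of each gene Cd74 was at −1.52 against −4.13 and Th at −0.86 against −1.79. With the cell filter of the study Th turned to 0.16, Igf2 to 1.49 and Igfbp2 to 1.55, and without the deepest cell of each library Igf2 was at 0.39 and Igfbp2 at 0.18. Ptgds was at 0.50 in the cells poor in other-cell markers. The part of the other-cell RNA in these ratios was not tested.

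Some neuropeptides were lower in tomatidine. Of 18 genes 13 had enough UMIs, 8 of them had a ratio below 0, 4 were at least 1.5-fold lower and 2 at least 1.5-fold higher, and the median was −0.43, against 0.04 over all genes, 0.30 in parvalbumin cells and −0.03 in Adarb2 cells. The direction rested on the cells taken: with the cell filter of the study, on genes found, their number relative to UMIs and mitochondrial share, which kept 126 and 120 members, the median was 0.02, and as a mean over cells it was −0.02. Sst, which chose the cells and is no result, is 1 of the 13 genes at −0.05, and without it the median was −0.47, 0.10 with that filter and 0.10 as a mean over cells. Npy was summed from 24577 UMIs in control (24271 to 24886) and 14964 in tomatidine (14725 to 15206), which gave 3334 and 2475 CPM and a log2 ratio of −0.43 (−0.46 to −0.40). It was also lower in Adarb2 cells, at −0.38 (867 and 667 CPM), but not in parvalbumin cells, at 0.13. In the somatostatin cells, the following held for Npy. A single cell gave 16.1% and 14.6% of those UMIs, and without the cells positive for Nos1 and Chodl the ratio was −0.25. Without all cells positive for Nos1, with or without Chodl (134 and 129 cells left), the ratio of summed UMIs turned to 0.12, while the share of Npy-positive cells among them was 56.7% and 42.6%.

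Crhbp was at 998 and 674 CPM, a ratio of −0.57 (−0.62 to −0.51), with a median cell at 5.0 and 2.5 UMIs per 10000. Cort was at −0.52 (−0.62 to −0.41), with 25.7% of its tomatidine UMIs in 1 cell. Crhbp stayed between −1.72 and −0.40 in 19 alternatives, whereas Cort reached 0.02 with the cell filter of the study. The 4 genes past 1.5-fold on the lower side were Crh (263 and 96 UMIs), Penk (892 and 431), Pdyn (767 and 400) and Tac1 (1114 and 596). Each was positive in at most 19 cells of a library. For Penk, 24.1% and 35.0% of the UMIs came from 1 cell of each library, and with the cell filter of the study it turned to 0.44. Crh stayed below 0 in 18 alternatives, but at −0.33 with at most 6000 genes per cell it was not past 1.5-fold. As a mean over cells Tac1 was at −0.36 and Pdyn at −0.02, neither past 1.5-fold. On the higher side were Cartpt (202 and 285 UMIs, 0.78, but 0.29 in the cells poor in other-cell markers and 0.55 as a mean over cells) and Vip, of which 1 tomatidine cell held 95% of 121 UMIs. With 6 UMIs in control, Vip reached the minimum of 100 UMIs through the tomatidine cells, so its call is no independent count. The other genes lay between, with Cck at 0.39, Pnoc at 0.14 and Nppc, the precursor of C-type natriuretic peptide, at 0.06.

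The subtype genes had a median of −0.30 over 17 tested genes, with 3 at least 1.5-fold lower and 1 higher. The lower ones were Nos1 (2232 and 693 UMIs, −1.40), Chodl (218 and 85 UMIs, −1.07) and Tac1. With the cell filter of the study Nos1 was at −0.50 and Chodl at −0.56, neither past 1.5-fold, and 1 cell held 55.3% of the tomatidine UMIs of Chodl. Nos1 rested on the few cells described above, since 27.1% and 52.1% of its UMIs came from 1 cell, and its 11 and 6 positive cells are too few to compare. The gene past 1.5-fold on the higher side was Chrna2 (83 and 120 UMIs, 0.82), with 32.5% of its tomatidine UMIs in 1 cell, and it turned to −0.49 as a mean over cells and to −0.74 with the cell filter of the study. Of the genes of the first set, Reln was at −0.15 (−0.22 to −0.08) and Elfn1 at 0.04 (−0.05 to 0.13). Calb1 was at 0.41 and Pvalb at −0.47, but with the cell filter of the study the first turned to −0.23 and the second to 0.30. Over the 8 genes Npy, Reln, Pvalb, Calb1, Calb2, Cort, Tac1 and Nos1, 27 control and 46 tomatidine cells were positive for exactly 1, 53 and 38 for 2, and 41 and 22 for 3. The median depth was lower in tomatidine, as given above, and its part in these counts was not tested.

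Genes that process peptides and form dense-core vesicles were slightly lower as a group. Of 19 tested, 17 had a ratio below 0, none was past 1.5-fold, and the median was −0.14, against 0.08 in parvalbumin cells and −0.03 in Adarb2 cells. It stayed between −0.20 and −0.08 in 21 alternatives. Scg2, secretogranin II, was lowest at −0.44 (4592 and 2778 UMIs, −0.51 to −0.37), followed by Vgf, a peptide precursor induced by activity, at −0.38 and Chga, chromogranin A, at −0.30. Pcsk1, the convertase that cuts prohormones, was at −0.28, while its inhibitor Pcsk1n, the most abundant gene of the list, was at 0.03 and Scg3 at 0.04.

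Immediate early genes, which are switched on within minutes of neuronal activity, had a median below that of all genes. Of 19 tested, 13 had a ratio below 0, 6 were at least 1.5-fold lower and 1 at least 1.5-fold higher, and the median was −0.47, against 0.03 in parvalbumin cells and 0.02 in Adarb2 cells. Fos went from 576 to 239 UMIs (−0.98, −1.21 to −0.76), Arc, which acts at active synapses, from 334 to 108 (−1.34, −1.67 to −1.03) and Egr4 from 79 to 25 (−1.37), with 41.8% of its control UMIs in 1 cell and a ratio of −0.24 as a mean over cells, which is not past 1.5-fold. Junb, Nr4a2 and Npas4 were the other genes past 1.5-fold, at −0.62, −0.63 and −0.61, and Egr1 was at −0.57. Npas4 turned to 0.47 as a mean over cells, and without the 10 deepest cells Junb was at −0.37 and Nr4a2 at −0.53, neither past 1.5-fold, and Egr4 at −0.56. As means over cells Fos was at −0.57, just short of 1.5-fold, and Arc at −0.81. Jun and Jund, the most abundant gene of the list, were at 0.23 and 0.15, and Bdnf, a growth factor, had 45 and 67 UMIs (0.86, but 0.57 in the cells poor in other-cell markers).

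The median cell differed little. The summed list had a median of 10.6 and 10.3 UMIs per 10000 per cell and an upper quartile of 14.7 and 14.4, while the highest cell had 69.9 and 42.1, and 15 control and 10 tomatidine cells were above 20. The 10 deepest cells held 25.9% of the list's UMIs in control and 18.8% in tomatidine, although they held 25.2% and 25.7% of all UMIs. Without them the median of the list was −0.15, and taken as a mean over cells it was −0.24. It was −0.14 with the cell filter of the study.

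**Figure D4:**
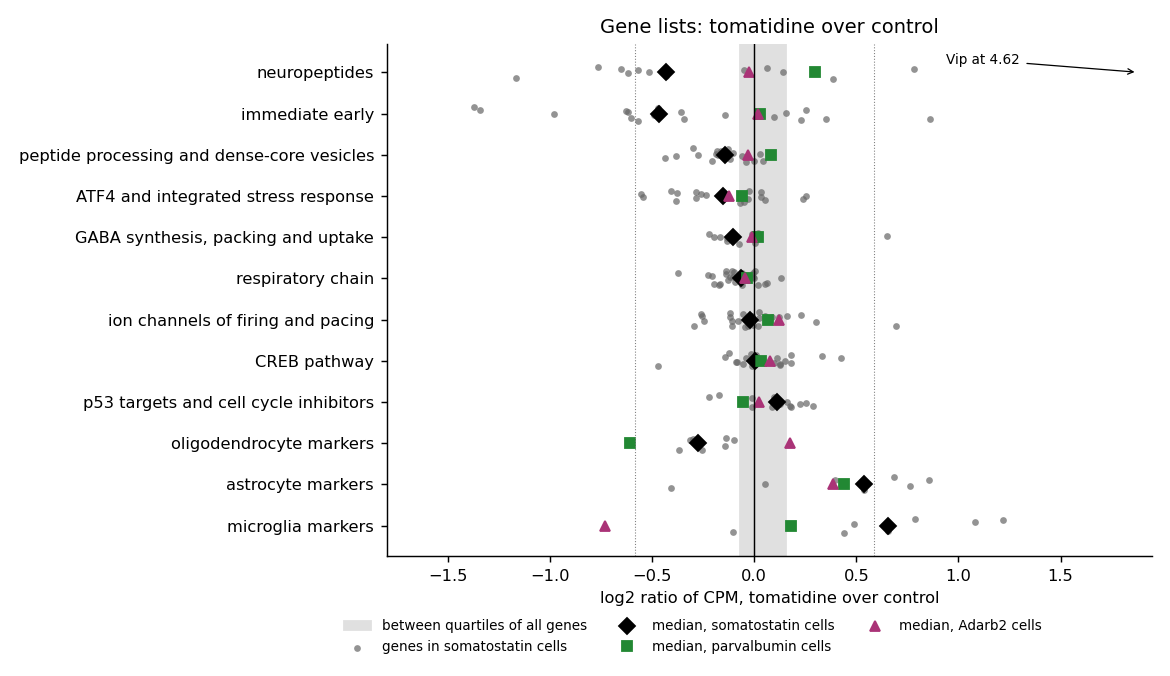
Log2 CPM ratio of tomatidine over control for the tested genes of 12 lists in somatostatin cells (grey points), with black diamonds at their medians, green squares and purple triangles at the medians in parvalbumin and Adarb2 cells, a grey band between the quartiles of all genes and dotted lines at 1.5-fold. The diamonds of neuropeptides (−0.43) and immediate early genes (−0.47) lie farthest left of the band. Those of oligodendrocyte markers (−0.275), ATF4 (−0.15), peptide processing (−0.14) and GABA synthesis (−0.11) also lie left of it. Those of astrocyte and microglia markers lie right of it, and Vip (4.62), beyond the axis, is marked by an arrow.

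Most of the other neuronal lists had medians near that of all genes. Synthesis, packing and uptake of GABA had a median of −0.11 over 10 genes, of which Gad1 (−0.20) and Gad2 (0.02) chose the cells and are no result, and −0.11 over the other 8, with Slc32a1, the vesicular GABA transporter, at −0.13, and Slc6a11, a GABA transporter of astrocytes, as its 1 gene past 1.5-fold (0.65), but at −0.12 in the cells poor in other-cell markers. GABA receptors were at −0.09 (14 genes, none past 1.5-fold), glutamate and acetylcholine receptors at 0.02 (23 genes, with Chrm2 lower at −0.85, but 0.08 with the cell filter of the study and −0.08 as a mean over cells, Chrna4 higher at 0.67, but 0.42 as a mean over cells, and Chrna2 as above) and ion channels at −0.02 (25 genes, Cacna1h higher at 0.70, but 0.21 in the cells poor in other-cell markers). Synaptic organisers and release genes were at 0.03 over 23 genes, with Cbln4, a secreted organiser of inhibitory synapses, as the 1 gene past 1.5-fold. Cbln4 went from 1753 to 680 UMIs (−1.08, −1.21 to −0.95), was positive in 23 and 15 cells, and stayed between −1.19 and −0.44 in 18 alternatives, below 1.5-fold without the 10 deepest cells (−0.44). Calcium binding genes had a median of 0.02, perineuronal net genes −0.08 (Acan lower at −1.42, from 140 and 43 UMIs, but −0.25 with the cell filter of the study), peptide and trophic receptors 0.00 (Oprk1 lower at −0.70, but −0.06 as a mean over cells, and Npy1r higher at 0.60, but 0.29 as a mean over cells), factors of the medial ganglionic eminence 0.07 and the CREB pathway 0.01.

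Of the stress and aging lists, only that of interferon response had a gene past 1.5-fold. ATF4 targets of the integrated stress response had a median of −0.15, with 13 of 18 below 0 and Sesn2, a stress sensor, lowest at −0.56. Respiratory chain genes were at −0.06 with 24 of 30 below 0, heat shock genes at −0.04 over 15, glucocorticoid response genes at 0.01 over 14 and interferon response genes at 0.01 over 10, where the class I molecule H2-K1 was past 1.5-fold (56 and 95 UMIs), but at −0.21 without the 5 cells with endothelial RNA. Genes of p53 and cell cycle inhibition were at 0.11 over 14. Cdkn1a, which encodes p21, had 54 UMIs in each library, 0.29 on the log2 scale (−0.29 to 0.86), and a UMI in 20% and 18.5% of cells. Thinned to 2000 UMIs, 1.51% and 1.59% of cells had one, against 1.46% and 1.10% of oligodendrocytes. Whether oligodendrocytes transcribe Cdkn1a themselves was not tested, so this comparison cannot tell how much of the level was free RNA. Cdkn2a, which encodes p16, had 7 and 5 UMIs, too few for a ratio. Parvalbumin markers in the somatostatin cells had a median of 0.00, markers of caudal interneurons 0.40 with 7 of 10 above 0, 3 of them past 1.5-fold and 2 past it on the lower side, and the 4 Y-linked genes 0.05. Of the 3 caudal markers, Vip (6 and 121 UMIs) reached 100 UMIs through the tomatidine cells, with 115 UMIs in 1 cell. Its call is therefore no independent count.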

How the data were processed

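Hippocampus of 4 control and 4 tomatidine-fed mice was fixed and dissociated, and 1 probe-based 10x library was made per group. With mm10 as the genome, the authors deposited raw UMI counts in filtered matrices, not normalized. The submitters' processing notes name Cell Ranger 8.0.0. The files hold 19059 genes, of which 6 symbols that occur more than once were left out. Both libraries hold 279525565 and 259059908 UMIs, and the precision of a sum is that of its UMI count.

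Cells were selected by the conditions given above. The members and the 29 gene lists were chosen with earlier results of these data known, and 4 list genes (Nrxn3, Mx1, Cx3cr1 and Ly6c1) were not analysed here. UMIs were summed over the cells of a class and scaled to CPM. All intervals are at 95%. Those of sums are exact Poisson, and those of shares are Clopper-Pearson. The method of Newcombe served for a difference of 2 shares, and a ratio of CPM was bounded by the exact binomial share of one library in the UMIs of both. Genes needed at least 100 UMIs in the members of both libraries together. A gene was called past 1.5-fold between libraries, or past 2-fold in both libraries between cell classes. Oligodendrocytes for the free RNA gauge had at least 10 UMIs and 10 per 10000 of Mog, Mag and Mobp and none of Gad1, Gad2, Slc17a7 and Slc17a6. Genes named were those of the selection, all neuropeptides and subtype genes, the ends and the most abundant member of every other list, the 8 genes at each end of the tomatidine ratio among those with at least 200 UMIs, the extremes against parvalbumin and Adarb2 cells, genes concentrated in few cells, Cdkn1a, Cdkn2a and somatostatin receptors. Other list members named, mostly beside the comparisons of cell classes, were chosen after their values were seen. Some genes that this rule names are not reported here.

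The calculations were tested on simulated counts. Scrublet was run from scanpy 1.11.5, TMM factors came from edgeR 4.0.16 in R 4.3.3, and the rest was done in Python 3.11.15 (scipy 1.17.1, numpy 2.4.6, pandas 2.3.3, matplotlib 3.10.9). Gene coordinates are those of GENCODE for GRCm38. Alternatives covered cell filters, the Sst threshold, doublets, Y-linked UMIs, scaling, thinning, single cells and the minimum of UMIs.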

Additional observations from a re-analysis of the deposited data

How the results depend on the processing

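The difference between the libraries in the share of somatostatin cells stayed within its interval under 9 alternatives, but the shares themselves moved. With at most 6000 genes per cell, 31 of 9981 control and 45 of 9463 tomatidine cells were members, so that the tomatidine share was the larger one. With at least 5000 UMIs per cell they were 139 of 10085 and 127 of 9741. The 232 genes at least 1.5-fold higher became 125 without cells rich in other-cell markers, 148 without cells with endothelial RNA, 7 in cells with no Y-linked UMI (8 and 11 cells), 425 as a mean over cells (and so by construction after thinning to 2000 UMIs), 2170 without a minimum of UMIs and 15 with a minimum of 500. The 90 lower genes became 21 in cells with no Y-linked UMI, 143 as a mean over cells and after thinning, which weight each cell equally, 1161 without a minimum and 21 with 500 UMIs. With 500 UMIs, 254 genes were 2-fold above parvalbumin cells and 106 above Adarb2 cells. Other alternatives left these 4 counts within 1.5 times.

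Of single genes, Penk turned to 0.44 with the cell filter of the study, 2.30 with the stricter filter of at most 6000 genes (31 and 45 cells) and 0.39 as a mean over cells or thinned. That stricter filter also turned Tac1 to 0.62, Pdyn to 0.76, Nos1 to 0.18, Chrm2 to 0.369 and Slc6a11 to −0.303. With the cell filter of the study Chrna2 was at −0.741, Chrm2 at 0.082, Th at 0.163, Igf2 at 1.492 and Igfbp2 at 1.554, and Chrna2 was at −0.488 as a mean over cells or thinned. Without the deepest cell Igf2 was at 0.393 and Igfbp2 at 0.182, and without the 10 deepest at 0.399 and 0.150. Npas4 was at 0.13 with the cell filter, 0.47 as a mean over cells or thinned, 0.23 without the 10 deepest cells and 0.028 without its top cell. Without cells with endothelial RNA, Pltp was at −0.38 and Vtn at −2.60, and H2-K1 at −0.208. Ptgds was at 0.50 and Slc6a11 at −0.116 without cells rich in other-cell markers, and Ptgds at 1.37 in cells with no Y-linked UMI. Without all Nos1 positive cells Nos1 was at 0.320 and Npy at 0.12. The median of the neuropeptides ranged from −1.40 to 0.09 and was 0.02 with the cell filter of the study. The causes were not tested.

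The alternatives without Nos1 and Chodl positive cells, without all Nos1 positive cells, with the gene minimum in either class, without the deepest cell or the 10 deepest and without endothelial RNA were added after the data were seen. A gene under 30 UMIs in an alternative gave no value there. No paired analysis was possible because each group is 1 library. Library preparation and diet cannot be told apart, and with 4 pooled mice no spread between animals is known.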
